A study of Mus musculus with 2 samples.

Results

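The endothelial and mural cell genes are a set of 38 marker genes, of which 27 mark the endothelium of blood and lymphatic vessels and 11 mark pericytes, stromal cells and smooth muscle. Their members were found by name, as the non-control probes whose gene name in the scanner files, or whose current RefSeq symbol, was on the list. All 38 were found, among 27238 named genes, on 45 probes that fill 90 spots of each array. Of these, 35 were measured: the scanner software had marked the same cell pool as well above background both times. Flt4, Sox18 and Prox1 were not.

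The study set sorted cells of the mouse gut against blood monocytes. The colon pool was of CX3CR1high CD11b+ CD11c+ cells out of large-intestinal lamina propria (the connective tissue layer beneath the gut epithelium) of CX3CR1gfp/+ mice, which carry the gene of green fluorescent protein in place of a copy of the fractalkine receptor gene Cx3cr1. The blood pool held Ly6c+ CD11b+ monocytes of C57BL/6J mice, and no treatment is given for either pool. Both are labelled as pooled, with n = 10 stated for the gut sort and n = 6 for the monocytes but not what n counts, and the ages of the mice are not given in the sources used here. On array 1 the colon pool was labelled with the red dye Cy5 and the blood pool with the green dye Cy3, and on array 2 the dyes were exchanged. The 2 arrays therefore hold the same 2 pools and count as 1 replicate, so no p-value was computed, and each SD below is the spread between both arrays, which covers no spread between pools. It is not stated whether both arrays used the same RNA extracts. Well above background were 59.6% and 56.2% of the colon pool's spots on arrays 1 and 2 and 52.9% and 54.1% of the blood pool's, and the number of arrays limits the precision. Tissue, the mice named (of CX3CR1gfp/+ genotype or C57BL/6J) and isolation differed together with the cell type, so their shares in any difference cannot be told apart.

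Endothelial cells form the inner wall of every vessel. They sense vascular endothelial growth factors through the receptors Kdr, Flt1 and Flt4 and angiopoietins through Tek, hold to each other by junction proteins such as Cdh5, Pecam1 and Cldn5, and are specified by transcription factors such as Sox17, Sox18 and, in lymphatic vessels, Prox1. Mural cells surround them. Pericytes carry Pdgfrb, Cspg4 and Rgs5 and lie on capillaries, whereas smooth muscle cells of arteries and of the gut's own muscle layers carry the contractile apparatus of Acta2, Tagln, Myh11 and Cnn1. Several of these genes are also known outside vessels: Pecam1, Flt1 and Thbd in monocytes, Vwf and Mmrn1 in platelets, and Cd34, Pdpn and Pdgfra in fibroblasts of connective tissue.

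Each array reads a gene through 60-base probes, and what a probe can tell apart depends on its bases. Among related members the most alike probes were those of Tie1 and Tek, the endothelial receptor tyrosine kinases of the angiopoietin system. They are shown because they shared the largest part of their aligned bases among the pairs compared. Of 57 aligned bases 39 were identical, or 68.4%, and capitals mark these bases. The probes lie at chr4:118144132-118144191 on the minus strand (Tie1) and at chr4:94540624-94540683 on the plus strand (Tek), on mouse build mm9 as the scanner files give them.
Tie1: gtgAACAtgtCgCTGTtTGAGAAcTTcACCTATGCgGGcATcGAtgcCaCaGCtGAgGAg
Tek: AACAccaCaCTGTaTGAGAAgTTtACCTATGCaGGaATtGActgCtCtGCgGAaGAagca
The other pairs of related members, aligned in the same way, shared 32.2% to 38.3% of their bases. Acta2 and Actg2, smooth muscle actins with nearly the same protein, shared 21 of 57 probe bases, or 36.8%. Probes were compared with each other and not with the related gene's transcript. These shares therefore do not tell whether a probe also binds that transcript, which was not tested.

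The probes of the adhesion molecule Pecam1 (chr11:106540864-106540923, minus strand) and of the smooth muscle myosin heavy chain Myh11 (chr16:14202190-14202249, minus strand) are shown as examples of an endothelial and a mural member, and both are free of stop codons in at least 1 reading frame. The upstream probes of Cd34 (chr1:196785280-196785339, plus strand) and Plvap (chr8:74030739-74030798, minus strand) are shown because each gave a smaller ratio than the gene's other probe, as described further on.
Pecam1: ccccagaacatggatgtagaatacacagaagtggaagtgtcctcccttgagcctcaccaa
Myh11: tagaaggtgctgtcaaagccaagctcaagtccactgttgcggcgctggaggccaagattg
Cd34 upstream probe: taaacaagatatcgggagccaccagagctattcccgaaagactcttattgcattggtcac
Plvap upstream probe: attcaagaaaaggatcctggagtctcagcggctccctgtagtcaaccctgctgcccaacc

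As a set, the members were mostly higher in the colon pool. A gene was called higher or lower when its log2 ratio of colon over blood was at least 1 or at most -1, a 2-fold difference, in both dye orientations, and the pool with more signal was marked as well above background each time. By this rule 21 of the 35 measured members (60%) were higher, against 14.2% of the 15677 measured genes of the arrays. Flt1 was the 1 lower member (2.86%), against 4.46% of all genes, and 13 members passed in neither direction, where 18.6% of all genes passed in either. The median ratio of the measured members was 1.30 (SD 0.056 between arrays), and that of all measured genes was 0.06. Ratios of members ran from -1.60 for Flt1 to 4.84 for Pdpn, and 33 of 35 lay above 0. All 35 were well above background in the colon pool on both arrays, and 19 in both pools. Of the 15677 measured genes, 15079 and 13276 were so. A member measured through the colon pool alone could hardly fall below 0, and the share of all genes above 0 was not counted. The median SD between arrays was 0.08 for the members and 0.1 for all genes, with 0.28 as the largest among measured members.

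**Figure D1:**
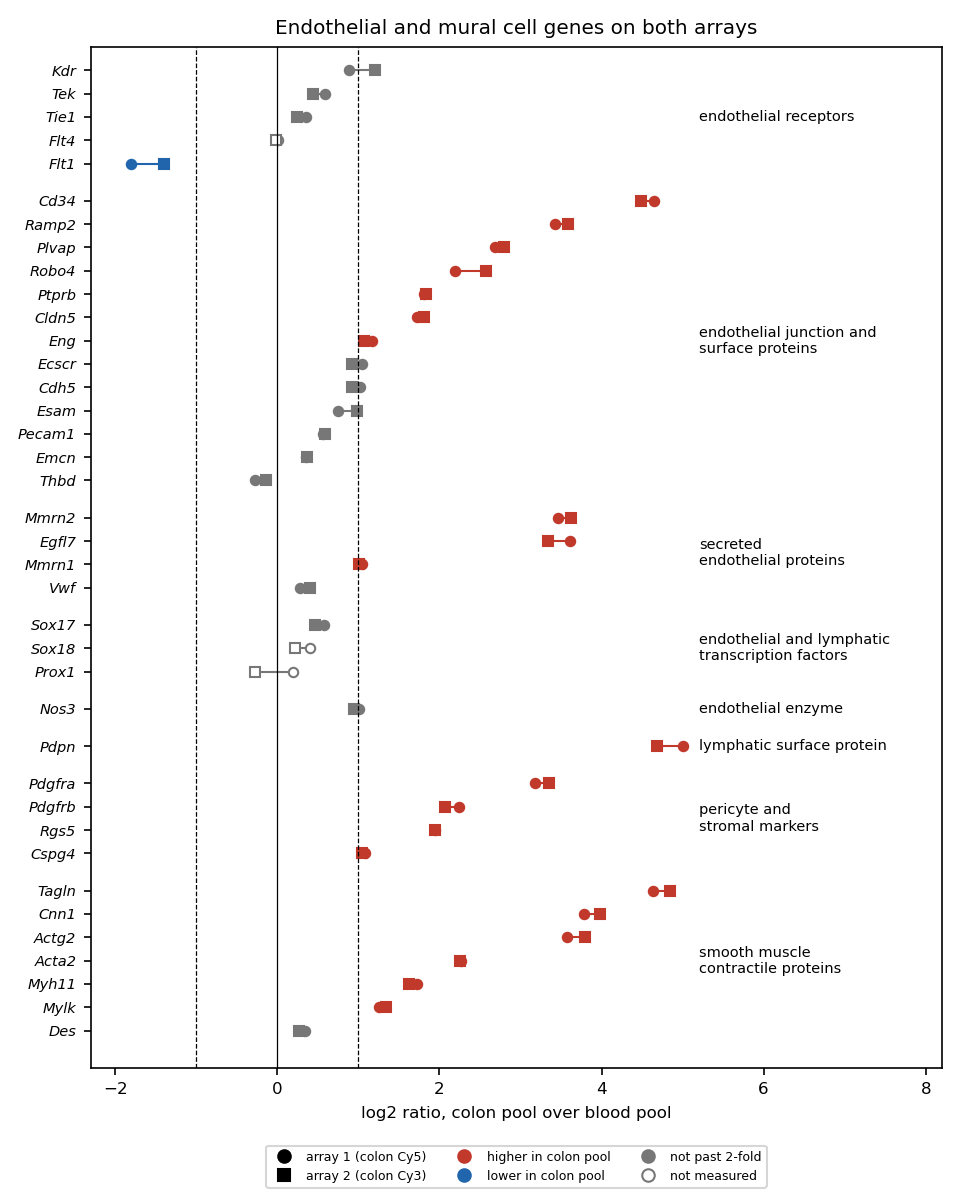
Log2 ratio of colon over blood for all 38 members, grouped by role and ordered by size within each group, with a circle for array 1 and a square for array 2 joined by a line. Dashed lines mark 2-fold. Pdpn, Tagln and Cd34 lie farthest to the right at 4.84, 4.74 and 4.57, and Flt1 alone lies to the left of the lower line at -1.60.

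The mural genes had the larger share of calls. Of 11 measured mural members 10 were higher and 0 lower (median 2.15), while of 24 measured endothelial members 11 were higher and 1 lower (median 1.01). This difference between the groups was not tested. Summed over the 27 endothelial members, the normalized signal was 30366 and 27890 on arrays 1 and 2 in the colon pool, against 10921 and 10049 in the blood pool. Over the 11 mural members it was 13716 and 13523 in the colon pool, against 1533 and 1398 in the blood pool. Both sums were led by their brightest probes in the colon pool, those of Cd34 and Pdpn and that of Tagln. Pdpn alone gave 7434 and 5907 in the colon pool, against 233 and 229 in the blood pool. The 5 endothelial receptors gave 3203 and 3336 in the colon pool, against 3208 and 2769 in the blood pool. On RNA pooled from many cells, fewer cells of a type and less RNA per cell cannot be told apart.

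Well above background says more for some members than for others. In 19 members both pools were well above background on both arrays, and 12 of these were higher in the colon pool. Of the 13276 genes that met this condition 1712 were higher. In another 13 the colon pool alone was, 4 were so in part of the channels, and 2, Flt4 and Prox1, in none. For 7 of the higher members the blood pool reached that mark with no probe on either array, so their fold is given as a lower bound, computed against the higher of the dim signal and the lowest signal well above background. Each fold given as at least a value is for the mean of both arrays under the normalization used here. A single array or another scaling can lie below it. Robo4 had a log2 bound of 2.38, but a ratio of 2.19 on array 1 and 2.22 under median centring of the arrays. The offset of 50 in the background correction compresses the ratios of dim probes, so the ratios near 0 of dim members do not measure how alike the pools were. With each such bound in place of the fitted ratio the members' median was again 1.30. The bounds were equal to the fitted ratios or just below them, and Mylk, which lay at the median, had none. This median could therefore hardly move, and it does not measure what dim signal does to the ratios.

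**Figure D2:**
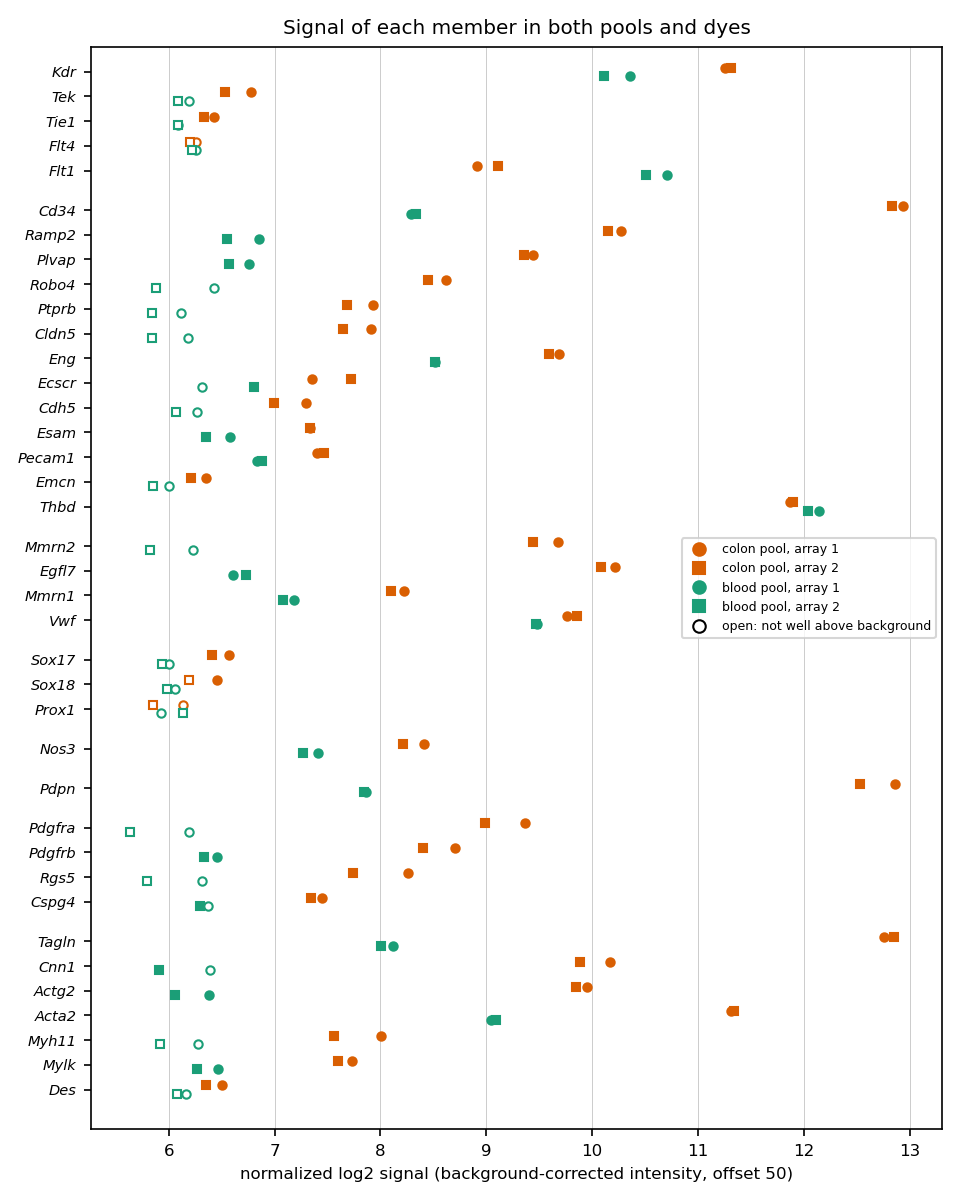
Normalized log2 signal of each member in both pools and on both arrays, with filled marks well above background and open marks not. Levels may be compared along a row but not between rows, since each row is a different probe. Cd34 reads 12.94 and 12.83 in the colon pool and 8.29 and 8.34 in the blood pool, while Flt4 and Prox1 have open marks alone.

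Among the endothelial receptors 0 of 4 measured members were higher and 1 was lower (median 0.40). Flt1, which encodes the receptor VEGFR1 and is also used by monocytes (chr5:148373791-148373850), had normalized log2 signals of 8.91 on array 1 and 9.11 on array 2 in the colon pool, against 10.71 and 10.51 in the blood pool. Both readings of the colon pool lay below both of the blood pool, which a lower call on each array nearly fixes. The ratio was -1.60 ± 0.28, or 3.03-fold lower in the colon pool, and it ran from -2.22 to -1.40 under the other settings tried.

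Kdr encodes VEGFR2, the main signalling receptor for VEGF-A on endothelium (chr5:76330395-76330454). It read 11.26 and 11.31 in the colon pool, against 10.36 and 10.11 in the blood pool. The ratio was 0.89 on array 1 and 1.20 on array 2, and its mean of 1.05 ± 0.22 came without a call. Under median centring of the arrays it was 0.37. The gene's second, dimmer probe lies 1086 bases downstream, gave 1.30 ± 0.00 and passed the rule. Tek read 6.78 and 6.53 in the colon pool, against 6.19 and 6.09 in the blood pool, where its probe was not well above background. Its ratio was 0.51 ± 0.10, and that of Tie1, whose probe sequence is set beside that of Tek above, was 0.30 ± 0.07. Flt4, the lymphatic receptor VEGFR3, read 6.26 and 6.20 in the colon pool, against 6.26 and 6.22 in the blood pool, and none of the 4 readings was well above background.

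The junction and surface proteins of endothelium had 7 higher and 0 lower members of 13, with a median of 1.12. Cd34 encodes a sialomucin of capillary endothelium, blood progenitors and many fibroblasts (chr1:196787392-196787451). It read 12.94 and 12.83 in the colon pool, against 8.29 and 8.34 in the blood pool. Its ratio was 4.57 ± 0.12, which is 23.7-fold, and 2.65 as a mean over its probes. Ramp2, the partner that turns the receptor Calcrl into an adrenomedullin receptor (chr11:101109501-101109560), read 10.27 and 10.15 in the colon pool, against 6.85 and 6.55 in the blood pool. Its ratio was 3.51 ± 0.12, or 11.4-fold. Plvap, which builds the diaphragms of endothelial fenestrae and caveolae (chr8:74021877-74021936), read 9.44 and 9.36 in the colon pool, against 6.76 and 6.57 in the blood pool, and its ratio was 2.74 ± 0.08, or 6.67-fold. In all 3 genes both pools were well above background. Their lowest colon reading lay above the highest blood reading, which ratios of this size nearly fix. The share of all genes without such overlap was not counted.

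Among the other higher members of this group, 3 were dim in the blood pool. Robo4, an endothelial guidance receptor that steadies vessels (chr9:37221547-37221606), read 8.62 and 8.45 in the colon pool, against 6.43 and 5.88 in the blood pool, a difference of at least 5.2-fold. Ptprb, the phosphatase VE-PTP that restrains Tek (chr10:115820912-115820971), read 7.93 and 7.68 in the colon pool, against 6.12 and 5.84 in the blood pool, at least 3.52-fold. Cldn5, the tight junction claudin of endothelium (chr16:18778046-18778105), read 7.91 and 7.65 in the colon pool, against 6.18 and 5.84 in the blood pool, at least 3.41-fold. For these 3 genes no blood reading was well above background. Eng, the TGF-beta coreceptor endoglin, which activated monocytes and macrophages also carry, was measured in both pools. It read 9.69 and 9.59 in the colon pool, against 8.52 and 8.52 in the blood pool, and its ratio of 1.12 ± 0.07 (2.17-fold) lost its call under median centring of the arrays (0.58) and with the scanner software's own ratios (0.98).

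The 6 members of this group without a call include both classical junction markers. Pecam1, the adhesion molecule CD31 that endothelium shares with monocytes and platelets, read 7.40 and 7.47 in the colon pool, against 6.83 and 6.88 in the blood pool, with a ratio of 0.58 ± 0.02. Cdh5, the VE-cadherin of adherens junctions, read 7.30 and 6.99 in the colon pool, against 6.27 and 6.07 in the blood pool, with a ratio of 0.97 ± 0.07. The Cdh5 ratio passed the threshold on array 1 (1.02) and not on array 2 (0.92), and the blood pool was not well above background. Ecscr, an endothelial surface regulator, likewise had 1.04 on array 1 and 0.92 on array 2. Esam, a junction immunoglobulin, had 0.87 ± 0.16, and Emcn, the venous and capillary sialomucin endomucin, had 0.36 ± 0.01. Thbd, the anticoagulant receptor thrombomodulin, was bright in both pools, with 11.87 and 11.90 in the colon pool, against 12.14 and 12.04 in the blood pool, and a ratio of -0.21 ± 0.10. Under median centring its ratio was -0.93, also without a call.

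Of the secreted endothelial proteins 3 of 4 were higher and 0 lower (median 2.25). Mmrn2, a matrix protein laid down by endothelium that binds VEGF-A (chr14:35216855-35216914), read 9.68 and 9.44 in the colon pool, against 6.23 and 5.82 in the blood pool, where it was not well above background. It was at least 11.6-fold higher in the colon pool. Egfl7, an endothelial matrix factor that guides tube formation (chr2:26448142-26448201), read 10.22 and 10.08 in the colon pool, against 6.61 and 6.73 in the blood pool, with a ratio of 3.47 ± 0.19 or 11.1-fold. Mmrn1, the multimerin of platelets and endothelium, read 8.22 and 8.10 in the colon pool, against 7.18 and 7.08 in the blood pool. Its ratio of 1.03 ± 0.02 (2.04-fold) was just past the threshold, and under median centring it was 0.76 without a call. Vwf, the platelet-binding von Willebrand factor, read 9.76 and 9.86 in the colon pool, against 9.48 and 9.47 in the blood pool. Its ratio of 0.34 ± 0.08 was not called, and it turned to -0.28 under median centring. Platelet markers are set beside both genes further on.

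The transcription factors that specify endothelium were at or near background. Sox17, an arterial factor, was the 1 measured member of 3 and read 6.57 and 6.41 in the colon pool, against 6.00 and 5.94 in the blood pool, with a ratio of 0.52 ± 0.07. Its second probe, 465 bases downstream, gave 0.13 and was not measured. Sox18 was well above background in the colon pool on array 1 alone, and Prox1, the master regulator of lymphatic identity, in neither pool. Nos3, the endothelial nitric oxide synthase, was measured in both pools and read 8.41 and 8.21 in the colon pool, against 7.41 and 7.27 in the blood pool. Its ratio of 0.97 ± 0.05 missed the threshold on array 2 (0.94) and passed it on array 1 (1.01).

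Pdpn, the mucin-type protein podoplanin that marks lymphatic endothelium, reticular fibroblasts and some macrophages, had the highest ratio of all members by the brightest probe and the mean of both arrays. On array 2 Tagln (4.84) lay above it (4.69), as it did with the mean over probes (4.74 for Tagln and 3.47 for Pdpn). By that mean Cnn1 (3.88), Actg2 (3.68), Mmrn2 (3.54) and Ramp2 (3.51) also lay above Pdpn. With the scanner software's ratios Pdgfra (7.06), Mmrn2 (6.65), Cnn1 (5.82), Ptprb (5.42), Actg2 (5.41) and Cldn5 (5.28) lay above Pdpn (5.07). Its brighter probe (chr4:142857339-142857398) read 12.86 and 12.53 in the colon pool, against 7.86 and 7.84 in the blood pool. The ratio was 4.84 ± 0.22, or 28.7-fold, and its other probe gave 2.09 ± 0.00, also past the rule. The other lymphatic members stood apart from it, with Flt4 and Prox1 not well above background in any channel.

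All 4 pericyte and stromal markers were higher in the colon pool, with a median of 2.05. Pdgfra, the PDGF receptor of fibroblasts and other mesenchymal cells (chr5:75593888-75593947), read 9.37 and 8.99 in the colon pool, against 6.19 and 5.63 in the blood pool, where it was not well above background. It was at least 9.61-fold higher. Pdgfrb, the PDGF receptor through which endothelium recruits pericytes, read 8.70 and 8.40 in the colon pool, against 6.46 and 6.33 in the blood pool, with a ratio of 2.15 ± 0.12 or 4.45-fold. Rgs5, a regulator of G-protein signalling in pericytes (chr1:171623021-171623080), read 8.26 and 7.74 in the colon pool, against 6.31 and 5.79 in the blood pool, at least 3.86-fold. Cspg4, the proteoglycan NG2 of pericytes and glial progenitors, read 7.45 and 7.34 in the colon pool, against 6.37 and 6.30 in the blood pool. Its ratio of 1.06 ± 0.02 (2.09-fold) was the smallest of the 4, and it lost its call under median centring, although its mean there was 1.02.

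Of the 7 smooth muscle contractile genes 6 were higher and 0 lower. Their median ratio was 2.26. Tagln, the actin-binding protein transgelin (chr9:45738097-45738156), read 12.76 and 12.85 in the colon pool, against 8.12 and 8.01 in the blood pool. Its ratio was 4.74 ± 0.14, or 26.7-fold. Acta2, the alpha actin of vascular smooth muscle and of myofibroblasts (chr19:34316060-34316119), read 11.31 and 11.34 in the colon pool, against 9.04 and 9.09 in the blood pool. Its ratio was 2.26 ± 0.01, or 4.78-fold, and its mean of 1.60 under median centring came without a call. Actg2, the gamma actin of gut smooth muscle (chr6:83462904-83462963), read 9.95 and 9.85 in the colon pool, against 6.38 and 6.06 in the blood pool, with a ratio of 3.68 ± 0.16 or 12.9-fold. All 3 genes were well above background in both pools.

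Cnn1, the calponin that brakes actomyosin in differentiated smooth muscle (chr9:21913058-21913117), read 10.17 and 9.89 in the colon pool, against 6.39 and 5.91 in the blood pool. Its ratio was 3.88 ± 0.14, or 14.7-fold, with the blood pool well above background on array 2 alone. Myh11, whose probe is printed above, read 8.01 and 7.56 in the colon pool, against 6.28 and 5.92 in the blood pool, at least 3.2-fold. Mylk, the kinase that switches smooth muscle myosin on, read 7.73 and 7.60 in the colon pool, against 6.47 and 6.27 in the blood pool, with a ratio of 1.30 ± 0.06 or 2.46-fold, and it lost its call under median centring (1.21). Des, the intermediate filament protein desmin of muscle, was the exception. It read 6.50 and 6.35 in the colon pool, against 6.16 and 6.08 in the blood pool, where it was not well above background, and its ratio of 0.30 ± 0.05 was not called.

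Where a member has more than 1 probe, the probes often disagreed in size. Of the 7 members with 2 probes, the ratios differed by over 1 on the log2 scale in 4, and the probe nearer the transcript's end gave the higher ratio in 5. The upstream Cd34 probe printed above lies 2112 bases before the other and gave 0.72, against 4.57. The upstream Plvap probe lies 8862 bases of genome before the other and gave 1.05, against 2.74. For Pdpn the upstream probe gave 2.09 and the downstream probe 4.84. Ptprb went the other way, with 1.82 upstream and 0.28 downstream, where the downstream probe was not well above background in either pool. The labelling began from an oligo-dT primer at the poly(A) tail, per the labels' protocols, and its part in these differences was not tested. No 2 probes of a member were called in opposite directions.

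**Figure D3:**
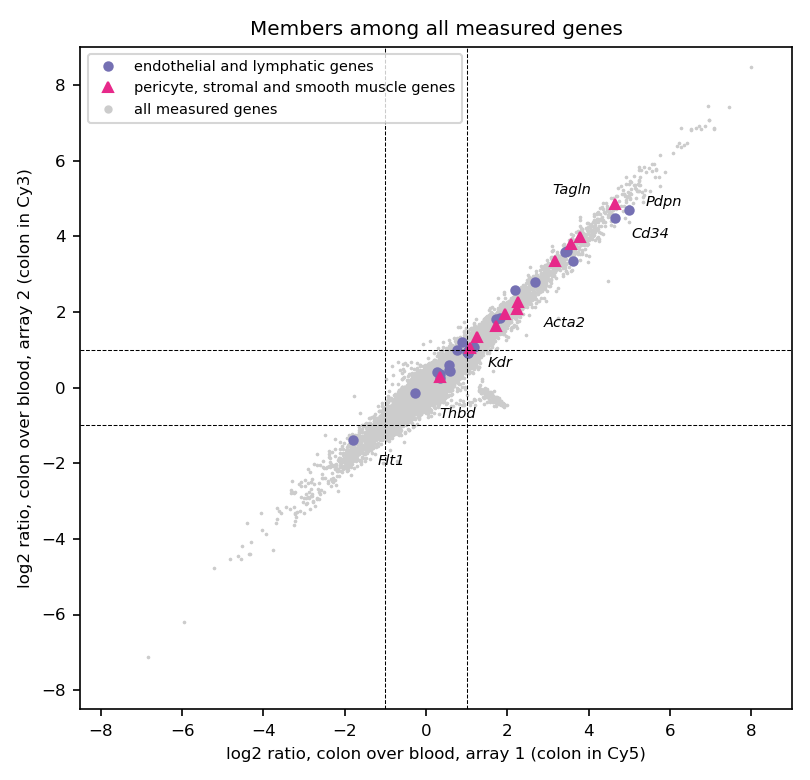
Log2 ratio of colon over blood on array 1 (colon pool in Cy5, x axis) and on array 2 (colon pool in Cy3, y axis) for all 15677 measured genes in grey, with endothelial and lymphatic members as circles and pericyte, stromal and smooth muscle members as triangles. Dashed lines mark 2-fold. Members lie close to the diagonal, with a largest SD between arrays of 0.28, from Flt1 at the lower left to Pdpn, Tagln and Cd34 at the upper right.

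The size of the ratios depended on the scaling more than their direction did. The median of all measured genes, 0.06 here, became -0.28 under median centring and -0.12 with the scanner software's ratios, and higher calls made up 67.1% and 60.4% of all calls under these scalings, against 76.1% here. The members' median was 1.21 and 3.23 under the same 2 scalings. Median centring left 16 members higher and 1 lower, and the software's ratios, which add no offset, made 28 higher and 1 lower. Members called with the software's ratios but not by the values above included Tek (3.23), Cdh5 (3.89), Sox17 (2.91) and Des (2.37), of which the blood pool was not well above background.

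Among growth factors and coreceptors that act on these cells, 11 of 17 measured were called higher and 0 lower. Their median log2 ratio was 2. Pdgfa, a ligand of Pdgfra, had a ratio of 5.60 ± 0.05 (48.5-fold). Nrp2, a coreceptor for VEGF-C and semaphorins, had 3.73 ± 0.11, Pdgfc, another Pdgfra ligand, was at least 11.5-fold higher, and Angptl4, a secreted lipase inhibitor that acts on vessels, had 3.27 ± 0.25. These are ratios of probes other than those of the members. Calcrl, the receptor that Ramp2 joins, had 0.29 ± 0.07 and was not called.

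A longer list of other endothelial genes gave 14 higher and 2 lower of 30 measured, with 8 more not measured and a median of 1.01. Lyve1, a hyaluronan receptor of lymphatic endothelium that tissue macrophages also carry, was at least 40.8-fold higher in the colon pool, and Tm4sf1, a tetraspanin-like endothelial protein, at least 20.1-fold. S1pr1, the sphingosine 1-phosphate receptor of endothelium and lymphocytes, had 3.99 ± 0.21. Ccl21a, a chemokine of lymphatic endothelium, had 3.81 ± 0.15, although near-identical copies of this gene may share its probe. The lower genes were Bmx, a kinase of arterial endothelium and of myeloid cells (-2.71 ± 0.26), and Icam2, an adhesion molecule of endothelium and leukocytes (-1.69 ± 0.12). Among other smooth muscle and pericyte genes 7 of 20 measured were higher and 1 lower (median 0.66). The tropomyosin gene Tpm2 (2.82 ± 0.07), the myosin light chain gene Myl9 (2.13 ± 0.18), the caldesmon gene Cald1 (2.12 ± 0.07) and Tpm1 (1.58 ± 0.11) were higher, and Myl9 and Tpm1 lost their calls under median centring. Flna, a filamin of most cells, was lower at -1.60 ± 0.01. Mcam, an adhesion molecule of pericytes and endothelium, had 1.56 on array 1 and -0.21 on array 2 so that its arrays disagreed in sign.

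Markers of other cell types that a gut sort could hold moved in the same comparison. All 14 fibroblast markers were higher in the colon pool, with a median of 4.65, among them Dcn (7.01 ± 0.08), Lum (6.82 ± 0.14) and the collagen genes Col1a1 (6.79 ± 0.04) and Col3a1 (6.75 ± 0.16). Their summed normalized signal was 134777 and 142339 in the colon pool, against 2513 and 2261 in the blood pool. Of 13 epithelial markers 11 were higher and 0 lower (median 1.90), among them Krt8 (4.01 ± 0.24), Lgals4 (3.60 ± 0.03), Krt19 (at least 8.9-fold) and Agr2 (at least 7.6-fold), with sums of 8418 and 7381 in the colon pool, against 1345 and 1100 in the blood pool. Kit, which mast cells also carry, and Ano1 mark the pacemaker cells of Cajal in gut muscle. With the blood pool not well above background, Kit was at least 5.7-fold and Ano1 at least 5.2-fold higher, with sums of 804 and 654 in the colon pool, against 151 and 117 in the blood pool. T cell markers were higher for 5 of 7, among them Cd28 (3.09 ± 0.22), Zap70 (2.67 ± 0.13), Lck (2.08 ± 0.08) and Cd3d (1.77 ± 0.01), with sums of 4517 and 3830 in the colon pool, against 1560 and 1212 in the blood pool. B cell and plasma cell markers were higher for 6 of 7, and for 3 under median centring. Among them were Jchain (5.18 ± 0.22), Mzb1 (3.65 ± 0.18), Derl3 (2.60 ± 0.10) and Ms4a1 (1.78 ± 0.03, and 1.44 without a call under median centring), with sums of 34311 and 35267 in the colon pool, against 2313 and 2368 in the blood pool. Of 7 enteric glia and nerve markers 5 were measured and 0 called, with sums of 3259 and 2009 in the colon pool, against 1479 and 2445 in the blood pool. Elavl4, by far the brightest of them, led these sums, and its arrays disagreed in sign, with 1.44 on array 1 and -0.43 on array 2. All 4 mesothelial markers, Msln, Upk3b, Wt1 and Lrrn4, were not well above background in the same pool on both arrays. The part of these cell types in the members' ratios was not tested.

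Platelet markers ran mostly the other way. Of 11, 5 were lower and 1 higher in the colon pool, with a median of -0.81. Gp9, of which the colon pool was not well above background, was at least 5-fold lower, and Treml1 (-2.21 ± 0.18), Itga2b (-1.62 ± 0.03) and Ppbp (-1.54 ± 0.10) were also lower. The higher one was Pf4, a chemokine of platelets and of some macrophages (5.53 ± 0.30). The list's summed signal, which includes the bright Pf4, was 107201 and 146457 in the colon pool, against 5415 and 7364 in the blood pool. Vwf and Mmrn1, which platelets share with endothelium, had the ratios given above, and the part of platelets in them was not tested. The 13 macrophage and monocyte genes that include the sort markers were all well above background in both pools. Itgax (CD11c) at 3.35 ± 0.08 and Ly6c1 at -3.28 ± 0.09 had the directions of the labels, although the label Ly6c+ does not say which Ly6c gene is meant. Cx3cr1, which the colon pool's label gives as high, had 0.28 on array 1 and -0.08 on array 2 (mean 0.10 ± 0.25, and -0.69 under median centring) and was not called. In the mice of the colon pool a copy of it is replaced. Itgam (CD11b), a marker of both sorts, had -0.46 ± 0.33 without a call. Mrc1 (5.78 ± 0.12), C1qb (5.70 ± 0.07) and C1qa (4.90 ± 0.02) were also higher, and Ccr2 (-3.90 ± 0.18) was also lower. Their summed signal was 334817 and 344181 in the colon pool, against 211976 and 211141 in the blood pool.

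**Figure D4:**
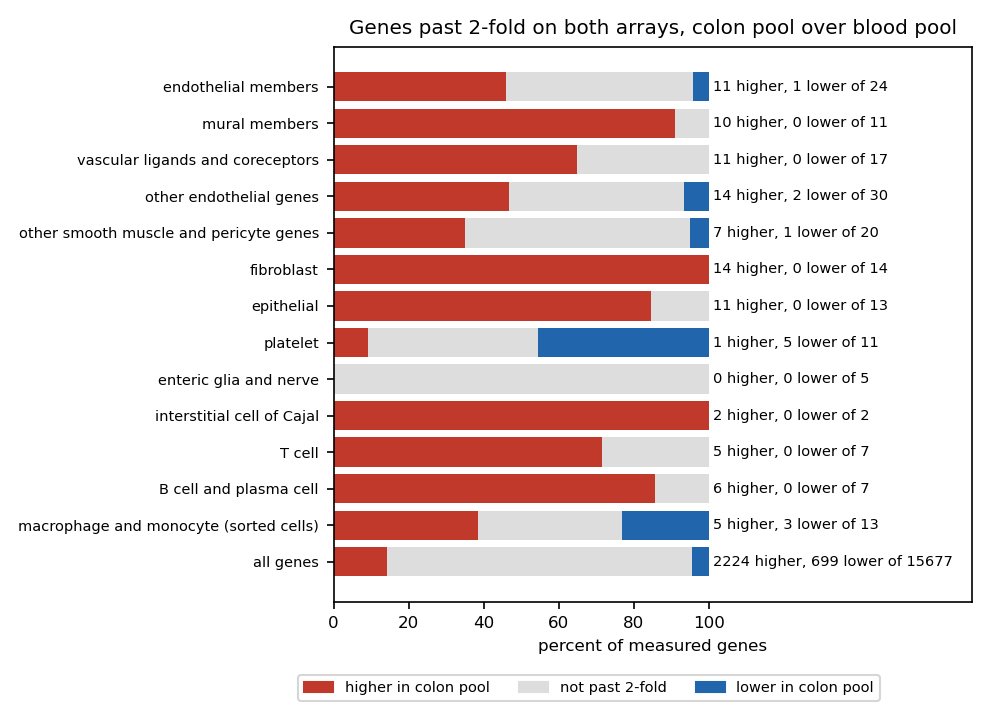
Percent of the measured genes of each list that were at least 2-fold higher (red), at least 2-fold lower (blue) or neither (grey) in colon over blood on both arrays. The rows of the mural members (10 higher of 11) and endothelial members (11 higher and 1 lower of 24) can be set against that of all genes (2224 higher and 699 lower of 15677) and against the fibroblast row, where all 14 were higher.

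Promoter sequence was read as a last feature, which the choice of members did not use. RefSeq promoters on GRCm38.p6 were at hand for 21 members, and the 250 bases before each start were searched on both strands. ETS factors, which act throughout endothelium, favour sites around GGAA, and the form CAGGAAG was found in 4 of 14 endothelial members (28.6%) and 0 of 7 mural members, against 12.1% of 27025 genes. The 4 were Cd34, Egfl7, Emcn and Robo4, of which Emcn was not called. The form CCGGAAG, which does not overlap the first, was found in Mylk alone of the 21, against 7.83% of genes. The CArG box, the site of serum response factor in smooth muscle genes, was found in 0 of 21, against 1.62% of genes, and a window without a match says nothing on the factor itself. The promoters of the 3 called genes are shown, on the plus strand at chr2:26580833-26581082 (Egfl7, the upstream start of 3 listed), chr9:37401722-37401971 (Robo4) and chr1:194938571-194938820 (Cd34), with the motif in capitals in either orientation.
Egfl7: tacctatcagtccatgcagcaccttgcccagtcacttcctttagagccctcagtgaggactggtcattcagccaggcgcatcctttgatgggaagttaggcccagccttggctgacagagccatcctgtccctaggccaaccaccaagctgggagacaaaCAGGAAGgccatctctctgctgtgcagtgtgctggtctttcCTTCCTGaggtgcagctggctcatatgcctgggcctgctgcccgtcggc
Robo4: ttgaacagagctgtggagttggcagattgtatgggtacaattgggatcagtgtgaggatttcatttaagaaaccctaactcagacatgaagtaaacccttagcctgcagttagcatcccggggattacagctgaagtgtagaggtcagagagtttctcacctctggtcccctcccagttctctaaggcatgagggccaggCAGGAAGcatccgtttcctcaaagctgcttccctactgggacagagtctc
Cd34: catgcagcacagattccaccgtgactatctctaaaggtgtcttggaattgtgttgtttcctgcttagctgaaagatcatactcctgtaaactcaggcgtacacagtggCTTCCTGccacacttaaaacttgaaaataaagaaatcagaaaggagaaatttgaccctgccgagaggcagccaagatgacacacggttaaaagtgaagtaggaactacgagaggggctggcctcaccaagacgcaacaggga
The Egfl7 window holds 2 matches, which begin 90 and 49 bases before the start. Robo4 and Cd34 hold 1 each, beginning 50 and 142 bases before it. A match is a run of letters and was not tested as a binding site in either pool.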

How the data were processed

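Members and gene lists were chosen with earlier results of these data known. RNA (25 ng per pool) was amplified with oligo-dT priming (per the labels' protocols) and hybridised to 2 two-colour Agilent arrays of 1 slide and 1 scan time. The deposited scanner files give each spot's mean intensity and local background intensity in both channels, unnormalized, per the file headers. They also hold the software's log10 ratio, which the deposited value table repeats as log10 ratios of colon over blood, with array 2 turned (largest difference 4.81e-08). Agilent Feature Extraction is 10.7.3.1 per the file headers and 10.5.1.1 per the submitters' processing notes.

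Intensities were corrected by normexp (offset 50, all spots) and normalized by loess within each array in limma 3.58.1 (R 4.3.3), giving weight 0 to control spots and outliers. No spot was saturated, and median intensities of 62.2 to 89.5 stood over local backgrounds of 40.5 to 43. Both ratios were oriented as colon over blood and averaged, which cancels dye effects shared by the arrays. Spots of a probe were averaged (39424 probes, 26053 named through RefSeq accessions, 8651 by the file's name, 4720 unnamed, and all 45 member probes through RefSeq), and the probe of highest mean intensity stood for its gene. Bounds used signals after loess and Aquantile scaling. With 1 replicate nothing was tested. The steps were checked on simulated arrays with known changes in bright probes alone. That check does not cover the dim members or the filter on dim probes.

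Every member is accounted for, and those called are given with all readings. From other lists up to 4 called genes per direction with the largest ratios were named, and Calcrl, Mcam, Elavl4, Cx3cr1, Itgam and the mesothelial markers, none of them called, were added after their values were seen. Some genes that this rule takes are not reported here. Probe positions are those of the files (mm9), and exons were not looked up because no annotation of that build was used here. Alternatives were uncorrected intensities, a normexp offset of 16, Aquantile scaling, the software's ratios, median centring, the deposited table, the mean over probes, other filters on dim probes, each array alone, and thresholds of 1.5-fold and 4-fold.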

Additional observations from a re-analysis of the deposited data

How the results depend on the processing

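Of the 13 alternatives, 5 change the ratios at the 2-fold threshold (median centring, uncorrected intensities, the mean over probes, an offset of 16 and the software's ratios), and 16 of the 21 higher members were called higher in each of them. The deposited table repeats the software's ratios, and Aquantile scaling, a single array, the 1.5-fold threshold and no filter cannot remove a call by their construction. No called member changed sign. Members higher in the colon pool numbered 12 where both pools had to be well above background and 13 at 4-fold, where 0 were lower, and 22 to 24 on a single array, where 1 was lower. Over all genes, 3493 were higher and 1725 lower at 1.5-fold, and 954 higher and 130 lower at 4-fold. Where both pools had to be well above background, 1712 of all genes were higher and 671 lower. Median centring left 1138 higher, and 2081 were lower with both the scanner software's ratios and the deposited value table. On a single array 2398 to 2641 were higher and 847 to 859 lower. The members' median was 1.54 without background correction, 1.80 with an offset of 16, 1.21 under median centring, 3.23 with the software's ratios and the deposited table, 1.17 as a mean over probes, 1.09 without a filter on dim probes, and 1.26 to 1.34 on a single array. The median of all genes was -0.28 under median centring, -0.12 with the software's ratios and the deposited table, 0.00 without a filter, 0.01 with both pools above background, and 0.05 to 0.08 on a single array. Cdh5, Nos3 and Ecscr passed on array 1 alone and Kdr on array 2 alone. Thresholds and filters change these counts by construction, and the cause was not tested for the other settings. No paired analysis was possible because both arrays hold the same 2 pools and no test was run. Signal over background limits dim members, whose ratios the offset compresses.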
